A study of Rattus norvegicus with 4 samples.

Results

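MicroRNA (miRNA) in serum exosomes was compared between rats with light hepatocellular carcinoma (HCC) at day 35 and rats that had received no injection. The members were all 141 rat miRNAs that the scanner software called detected on either of these 2 arrays, out of 719 on the array. Both groups were male rats, called baffolo rats in the series' text, and each is represented by 1 array. The naive group (day 0) was uninjected. The light group is described by its title and its day only. According to the protocol an HCC cell line had been injected, whereas the series' text speaks of 1 dose of HCC exosomes, and neither names the line. Independent experiments in different animals, 4 for each time, are mentioned there; 1 array for each group was analysed here, and whether RNA was pooled is not stated. There is therefore no replicate, no p-value and no count of significant miRNAs. Errors after ± are standard errors among repeated spots within an array, so they hold no animal-to-animal variation. Disease and day change together in this comparison and cannot be told apart. The moderate and severe groups, both at day 49, enter as reference values and are compared with the same naive array.

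A miRNA is a short RNA, cut from one arm of a hairpin precursor, that lowers the output of messenger RNAs pairing with its seed, bases 2 to 8 from the 5′ end. Exosomes are small vesicles that carry such RNA out of cells into blood. In serum many miRNAs point to the cells that make them: miR-122 to hepatocytes, miR-451 and miR-144 to red cells, miR-223 to myeloid cells and platelets, and miR-133 and miR-1 to muscle. In such a mixture, fewer vesicles from a source and less of a miRNA per vesicle cannot be told apart.

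The sequences below belong to the 3 miRNAs that differed at least 2-fold. They are RefSeq mature sequences (build GRCr8), with the seed in capitals. Of the 141 members, 129 matched that table by name.
miR-122-5p: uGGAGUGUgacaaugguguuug
miR-144-3p: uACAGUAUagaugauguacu
miR-140-5p: cAGUGGUUuuacccuaugguag
The Mir122 and Mir140 precursors are shown because both of their arms were members. Capitals mark the arms, the 5p arm first.
Mir122: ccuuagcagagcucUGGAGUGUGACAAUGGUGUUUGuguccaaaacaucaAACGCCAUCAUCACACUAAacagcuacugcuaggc
Mir140: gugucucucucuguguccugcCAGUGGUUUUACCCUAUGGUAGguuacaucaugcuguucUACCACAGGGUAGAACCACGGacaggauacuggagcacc

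The naive array had 140 detected miRNAs and the light array 122, with 121 in common. The summed signal of detected miRNAs on the light array was 0.643 times that of the naive array, while the 2 labelling spike-ins, control RNAs added before labelling, had a geometric mean 1.004 times as bright. Signals, background-subtracted by the scanner software and so sometimes below 0, were divided by a 75th percentile taken over the 111 miRNAs that every array detected, 666 intensity units for naive and 356 for light. A miRNA counted as measured where it was detected and reached a floor, set for each array by its dimmest probe that had 0.5 or more of the spots called well above background (15.6 intensity units for naive, 15.1 for light). This gave 117 miRNAs measured on both arrays, 10 on the naive array alone, 1 on the light array alone and 13 on neither. The number of arrays limits the precision of everything that follows.

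Across the 117 miRNAs, scaled signals on the 2 arrays lay close together. The log2 difference, light minus naive, had a median of 0.27, quartiles of −0.12 and 0.53, and a range from −2.18 to 1.38. Within 0.5 log2 units of the median lay 84 of the 117. At least 2-fold higher on the light array were 2 miRNAs (1.71% of those measured), and 1 was at least 2-fold lower (0.855%). At 1.5-fold the counts were 25 higher (21.4%) and 8 lower (6.84%). The median itself moved with the processing, from −0.64 with the spike-ins to 0.36 with normexp background correction, so a difference is best read against it. Relative to the median, 1 miRNA was 2-fold higher (0.855%) and 4 were 2-fold lower (3.42%), and at 1.5-fold 5 were higher (4.27%) and 16 lower (13.7%). With the same scaling, the moderate array had 8 miRNAs at least 2-fold above naive (6.35% of 126) and 1 below (0.794%), and the severe array 24 above (22% of 109) and 21 below (19.3%). Without scaling 114 of the 117 gave less signal on the light array, and miR-144-3p, miR-140-5p and miR-215 gave more. Under all 14 settings with a value miR-144-3p ranked highest, miR-140-5p next and miR-122-5p lowest. No scaling, median scaling and the spike-ins, among others, shift all log2 differences alike. They cannot change this order or a miRNA's side of the median, so only the remaining settings bear on it.

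**Figure D1:**
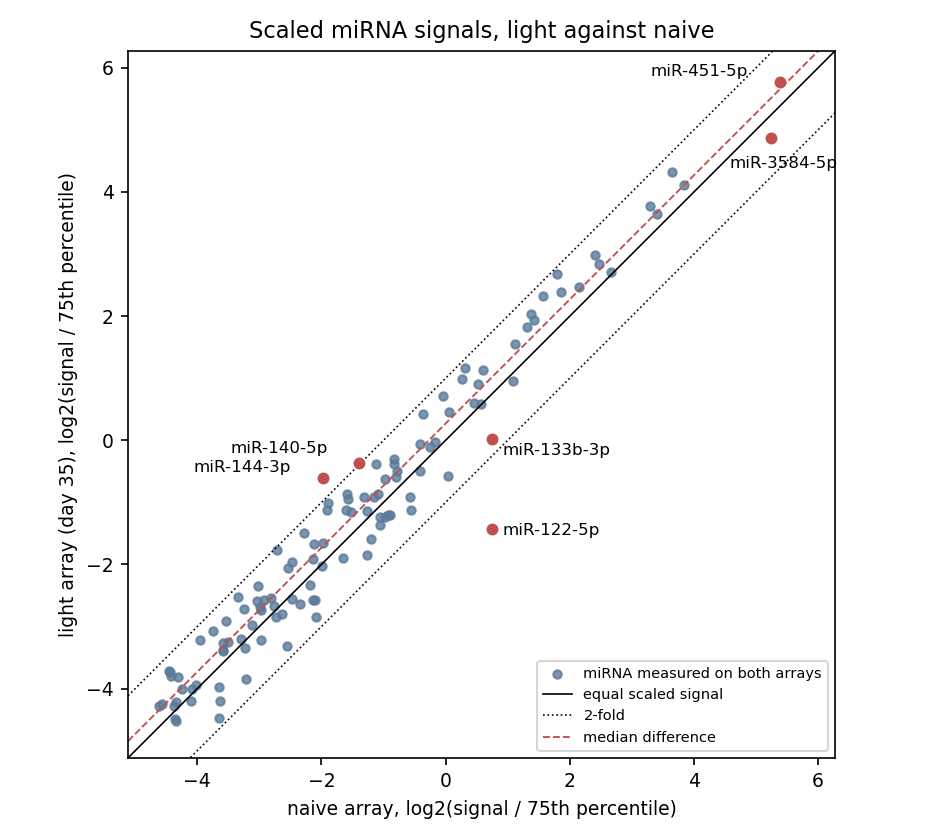
Each point is 1 of the 117 miRNAs measured on both arrays. The axes give log2 of the signal divided by the array's 75th percentile, naive on x and light on y; the solid line marks equality, dotted lines 2-fold and the dashed line the median difference of 0.27. miR-122-5p lies far below the band, and miR-144-3p and miR-140-5p lie just above its upper 2-fold line.

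Members of the liver list did not differ in 1 direction, but those measured hepatocyte markers that were set beforehand both lay below the median. miR-122-5p, by far the most abundant miRNA in hepatocytes, read 1123 ± 11.2 intensity units on the naive array and 132 ± 2.03 on the light array. Its share of the array's summed signal was 0.807% for naive and 0.148% for light, and after scaling it was 4.53-fold lower (log2 −2.18 ± 0.03). Both of its probes were lower, by log2 −2.49 and −2.06, the widest gap between probes of 1 miRNA among the 80 with 2 or more probes above the floor. Over the processing settings its difference ranged from −3.09 to −1.56. On the moderate and severe arrays miR-122-5p stood at −0.74 and −0.75 against naive, so the light array read lowest of the 4. miR-122-3p, the opposite arm of that hairpin, read 25.7 ± 1.05 on the naive array with 10 of 20 spots well above background. On the light array it read −2.46 ± 1.04, with 0 of 19 spots well above background. Scaled, the naive signal of the 3p arm lies under the floor of the light array, so no fold can be given.

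Of the other 5 measured liver members, 4 lay above the median and miR-192-5p below it. miR-192-5p, of liver and gut epithelium, read 321 ± 2.39 and 151 ± 2.01 on the naive and light arrays (log2 −0.19 ± 0.02). miR-215, which shares its seed, read 102 ± 1.48 and 105 ± 1.88 (log2 0.95 ± 0.03), the third highest difference of the 117. Their sequences are set side by side because they share a seed but lay 1.14 log2 units apart, the widest gap in a pair of seed-sharing miRNAs here, with 3 mismatches over the first 21 positions.
miR-192-5p: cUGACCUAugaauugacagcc
miR-215: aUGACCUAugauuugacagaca
The value of miR-215 rested mainly on 1 of its 2 probes, at 89.5 and 91.3, since the other read 12.1 and 13.9. miR-101a-3p stood at 0.63 ± 0.07, with each of its probes below the floor on the light array, and miR-101b-3p at 0.67 ± 0.03. miR-21-5p, widely studied as an oncogenic miRNA and also on the list of miRNAs raised in HCC, read 1969 ± 7.90 and 1778 ± 12.1 (log2 0.76 ± 0.01). Of 11 liver miRNAs on the array 6 were measured on both arrays, 0 were 2-fold higher and 1 was 2-fold lower. The list's median was 0.65, against 0.27 over all miRNAs. Of the measured members, only miR-122-5p and miR-192-5p had been set as hepatocyte markers, so this median does not describe those markers. miR-193-3p, another such marker, read 16.4 ± 0.990 on the naive array and 6.13 ± 1.02, below the floor, on the light array. miR-194-5p, miR-193-5p and miR-802-5p were not detected on either array. With detection by spots well above background 4 members were left, and their median of −0.10 lay below that of all miRNAs, −0.03.

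Both red-cell miRNAs measured on the 2 arrays stood above the median, by unequal amounts; with quantile normalization or normexp 1 of the 2 did. miR-144-3p read 169 ± 1.99 on the naive array and 234 ± 2.59 on the light array and was 2.59-fold higher after scaling (log2 1.38 ± 0.02). Its 2 probes gave 1.46 and 1.36. miR-451-5p, whose gene neighbours that of miR-144 and which is the most abundant miRNA of red cells, read 27775 ± 114 and 19496 ± 89.7 (log2 0.39 ± 0.01). Its share of the summed signal was 19.96% for naive and 21.8% for light. miR-363-3p read 15.1 ± 1.09 and 15.6 ± 1.37, near both floors, and was the 1 miRNA measured on the light array alone. The opposite arm miR-144-5p was not detected on either array, with 4.99 ± 0.987 and 7.52 ± 0.972. miR-16-5p, also abundant in red cells, stood at 0.23 and lay below the median in all 14 settings. Of the 7 red-cell miRNAs on the array only miR-144-3p passed 2-fold. Against naive, miR-144-3p stood at −0.19 for moderate and 1.82 for severe, so with this scaling the light value lies between them.

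**Figure D2:**
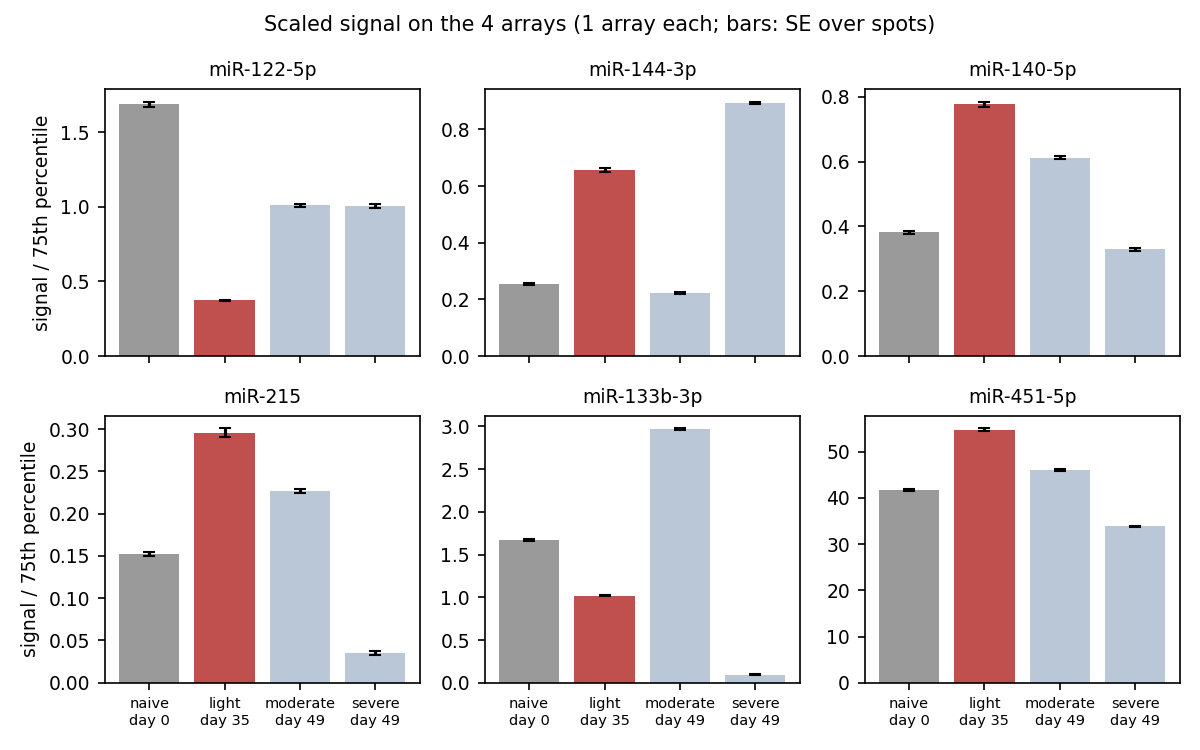
Bars give the signal divided by the array's 75th percentile for 6 miRNAs on the 4 arrays, 1 for each group, with the standard error over spots. The light bar (red) is the lowest of the 4 for miR-122-5p and the highest for miR-140-5p, miR-215 and miR-451-5p; the severe value of miR-215 was below the floor.

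miR-140-5p, a miRNA best known from cartilage, read 254 ± 3.26 on the naive array and 277 ± 3.03 on the light array, 2.04-fold higher after scaling (log2 1.03 ± 0.02). Its probes gave 1.04 and 1.02. This call sits on the threshold: the difference was 0.90 with quantile normalization and 0.12 with the spike-ins. The 3p arm of the same hairpin was also high, at 830 ± 4.82 and 801 ± 7.09 (log2 0.85 ± 0.02), the sixth highest of the 117. Among other hairpins with both arms measured, miR-142-5p and miR-142-3p stood at 0.73 and 0.79, miR-324-5p and miR-324-3p at 0.09 and −0.12, miR-328a-5p and miR-328a-3p at −0.10 and 0.15, and miR-652-5p and miR-652-3p at −0.18 and −0.08. In let-7d the 5p arm stood at −0.31 and the 3p arm at 0.82, the widest gap; the brightest of the 4 probes of the 3p arm alone gave 0.91.

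let-7, a family that restrains proliferation and marks differentiated cells, lay mostly at the low end. These members are shown because they share a seed but did not all read alike.
let-7a-5p: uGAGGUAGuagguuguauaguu
let-7c-5p: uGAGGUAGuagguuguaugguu
let-7f-5p: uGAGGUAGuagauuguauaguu
let-7i-5p: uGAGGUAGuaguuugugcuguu
Counted from the 5′ end, let-7a-5p and let-7c-5p differ by A19G, and let-7a-5p and let-7f-5p by G12A. let-7a-5p read 451 ± 4.30 on the naive array and 163 ± 1.52 on the light array (log2 −0.57 ± 0.02). let-7c-5p read 277 ± 3.83 and 98.6 ± 1.57 (log2 −0.59 ± 0.03). let-7b-5p, let-7f-5p and let-7d-5p stood at −0.39, −0.34 and −0.31. These 5 lay below the median of all miRNAs under all 14 settings. let-7i-5p, with 4 mismatches to let-7c-5p, stood apart at 695 ± 10.1 and 486 ± 4.63 (log2 0.39 ± 0.03). Among the 7 measured members, let-7d-3p included, 0 passed 2-fold in either direction, and the median was −0.34 against 0.27 over all. Near-identical targets can bind each other's probes, so single members are uncertain. miR-98-5p, of the same family, was not detected.

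Muscle miRNAs, which mark heart and skeletal muscle, were also low. miR-133b-3p read 1114 ± 5.31 on the naive array and 363 ± 3.35 on the light array, 1.64-fold lower after scaling (log2 −0.71 ± 0.01). It stood at 0.83 for moderate and −4.14 for severe against naive, so the order from lowest to highest was severe, light, naive, moderate. miR-1-3p read 130 ± 2.02 and 57.2 ± 1.55 (log2 −0.29 ± 0.05). miR-133a-3p was detected on the naive array and not on the light array, but at 6.66 ± 0.937 and −6.31 ± 0.661 it was below both floors. miR-206-3p, miR-208a-3p, miR-208b-3p and miR-499-5p were not detected on either array. Of the 7 muscle miRNAs, 2 were measured on both arrays and 0 passed 2-fold.

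**Figure D3:**
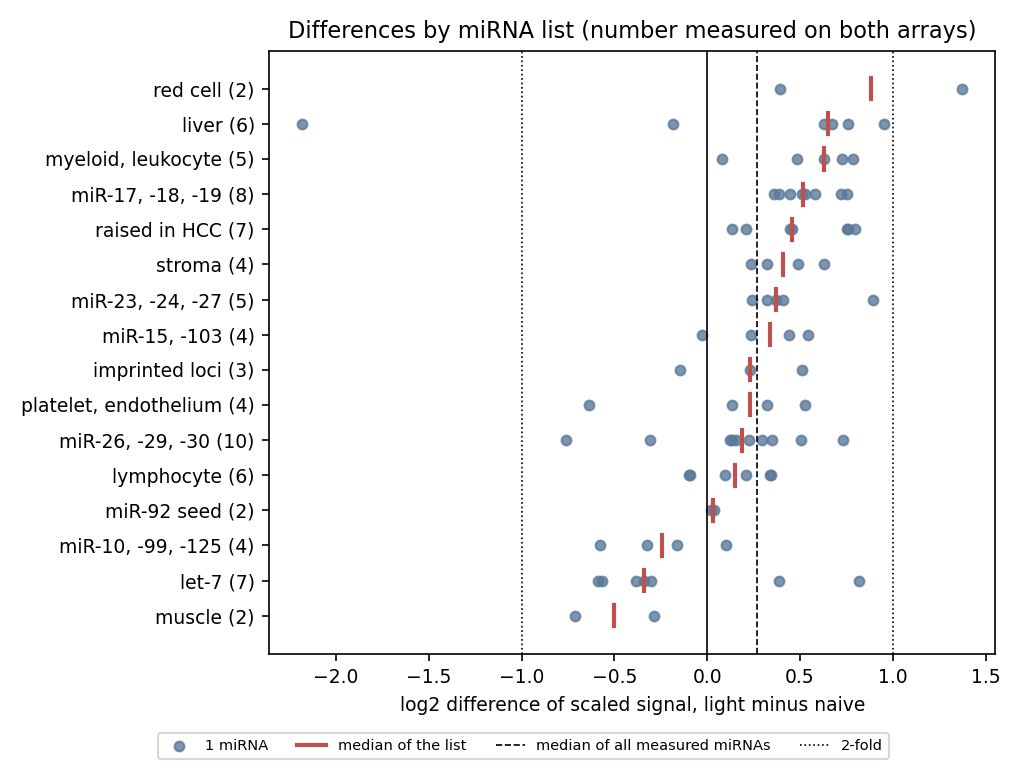
Points are miRNAs measured on both arrays, placed by the log2 difference of scaled signal, light minus naive, in rows by list with the number measured in brackets. Red ticks are list medians, the dashed line is the median of all 117 at 0.27 and dotted lines mark 2-fold. The let-7 and muscle medians lie lowest, at −0.34 and −0.50, and miR-122-5p is the single point left of the lower 2-fold line.

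As reported, myeloid and lymphocyte miRNAs lay on different sides of the median for the most part, but the lymphocyte side depended on the processing. Of the myeloid and pan-leukocyte list, 4 of the 5 measured members lay above the median of all miRNAs. miR-223-3p, of neutrophils, monocytes and platelets, read 6534 ± 36.1 on the naive array and 4880 ± 38.0 on the light array (log2 0.48 ± 0.01). miR-142-3p, present in all blood cells, read 516 ± 4.74 and 475 ± 6.996 (log2 0.79 ± 0.03), and miR-146a-5p, a brake on inflammatory signalling, stood at 0.63 ± 0.02. miR-146b-5p stood at 0.08. Among lymphocyte miRNAs, miR-150-5p, of mature B and T cells, read 502 ± 3.68 and 252 ± 2.53 (log2 −0.09 ± 0.02), and miR-342-3p stood at 0.21. miR-181a-5p, miR-181c-5p, miR-181d-5p and miR-181b-5p, which share a seed, stood at −0.10, 0.10, 0.34 and 0.34. The medians were 0.63 for the myeloid list and 0.15 for the lymphocyte list, and 0 of 11 measured members passed 2-fold. With normexp, 4 of the 6 lymphocyte members lay above the median of all miRNAs, and with quantile normalization 3 did, against 2 as reported. In the miR-17, miR-18 and miR-19 families, which promote proliferation, all 8 measured members lay above the median of all miRNAs. The list's median was 0.52 and its range 0.36 for miR-93-5p to 0.75 for miR-106b-5p. With normexp background correction 3 of the 8 lay above it.

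miRNAs of platelets and endothelium differed from one another. miR-126a-3p, the endothelial miRNA also found in platelets, read 71.9 ± 1.15 on the naive array and 24.7 ± 0.677 on the light array (log2 −0.64 ± 0.05). These are sums over 2 probes. The 1 probe above the floor gave −0.53 alone, and with normexp miR-126a-3p gave 0.27. Its opposite arm miR-126a-5p was detected on the naive array alone, at 13.5 ± 0.495 against 4.39 ± 0.311, under the floor on both. miR-22-3p and miR-24-3p stood at 0.53 and 0.32, and miR-221-3p at 0.13. Of the 4 measured members of the stromal list, miR-143-3p lay just below the median, at 0.23. Above it were miR-199a-3p at 0.32, miR-214-3p at 0.49 and miR-497-5p at 0.63. miR-145-5p was not detected. miR-195-5p, also on that list, read 18.6 ± 0.926 on the naive array and was not detected on the light array, at 4.27 ± 0.887. The 4 measured members of the miR-10, miR-99 and miR-125 families lay below the median. They were miR-99a-5p at −0.58 ± 0.08, miR-10a-5p at −0.32 ± 0.07, miR-125a-3p at −0.16 ± 0.07 and miR-10b-5p at 0.10 ± 0.08. With normexp all 4 lay above the median. Every probe of miR-125a-3p was below the floor on the light array. miR-125b-5p, of the same family, read 41.7 ± 1.02 on the naive array and 1.02 ± 0.946 on the light array, where 0 of 18 spots were well above background. It was at least 1.47-fold lower, a bound that sets the naive sum over probes against the floor of a single probe.

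Further low values came from bright and dim miRNAs alike. miR-139-3p read 52.9 ± 1.12 and 15.98 ± 0.927 (log2 −0.82 ± 0.09), second lowest of the 117, but the light value is near its floor and normexp gave 0.33. miR-30c-5p stood at −0.76 ± 0.04 from 157 ± 2.47 and 49.6 ± 1.25, and miR-30b-5p at −0.31, while miR-30a-5p, miR-30d-5p and miR-30e-5p stood at 0.12, 0.23 and 0.30. The rodent miRNAs miR-466c-3p and miR-466b-1-3p stood at −0.76 and −0.62, whereas miR-466b-5p stood at 0.47. With normexp miR-30c-5p gave −0.01 and miR-466c-3p 0.10. On the light array a probe of miR-30c-5p, at 4.12, and a probe of miR-466c-3p, at 14.4, were below the floor. miR-3584-5p, with a share of the summed signal of 18.1% for naive and 11.6% for light, stood at −0.38 ± 0.01. miR-3473 gave 6.01% and 7.98% and stood at 0.67 ± 0.01. Brightness between miRNAs depends on their probes and is no order of abundance. Of the 10 miRNAs that gave most signal on each array, 9 were the same, with miR-24-3p on the naive array replaced by miR-27a-3p on the light array.

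In several seed families every measured member lay above the median of all miRNAs. miR-130a-3p and miR-130b-3p, which share a seed, stood at 0.66 ± 0.02 and 0.80 ± 0.04, and miR-301a-3p at 0.89 ± 0.02. miR-19a-3p and miR-19b-3p stood at 0.72 and 0.58, and miR-29a-3p, miR-29b-3p and miR-29c-3p at 0.50, 0.73 and 0.35. miR-211-3p read 137 ± 2.05 and 126 ± 1.16 (log2 0.78 ± 0.03). The pairs below are printed because a single base separates the members while their differences did not match.
miR-27a-3p: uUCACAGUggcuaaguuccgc
miR-27b-3p: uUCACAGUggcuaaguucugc
miR-103-3p: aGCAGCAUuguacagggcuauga
miR-107-3p: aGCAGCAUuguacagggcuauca
miR-27a-3p and miR-27b-3p differ by C19U. miR-27a-3p read 2303 ± 19.2 on the naive array and 2283 ± 35.0 on the light array (log2 0.89 ± 0.03), and miR-27b-3p read 267 ± 2.50 and 189 ± 1.85 (log2 0.41 ± 0.02). miR-103-3p and miR-107-3p differ by G22C. They read 167 ± 2.56 and 87.4 ± 1.84 (log2 −0.03 ± 0.04) and 372 ± 4.68 and 290 ± 4.97 (log2 0.54 ± 0.03). Over 16 groups of 44 miRNAs with a shared seed, the pooled standard deviation within groups was 0.31, against 0.41 over the same 44. Members of a group can share probe signal, so this is a description.

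**Figure D4:**
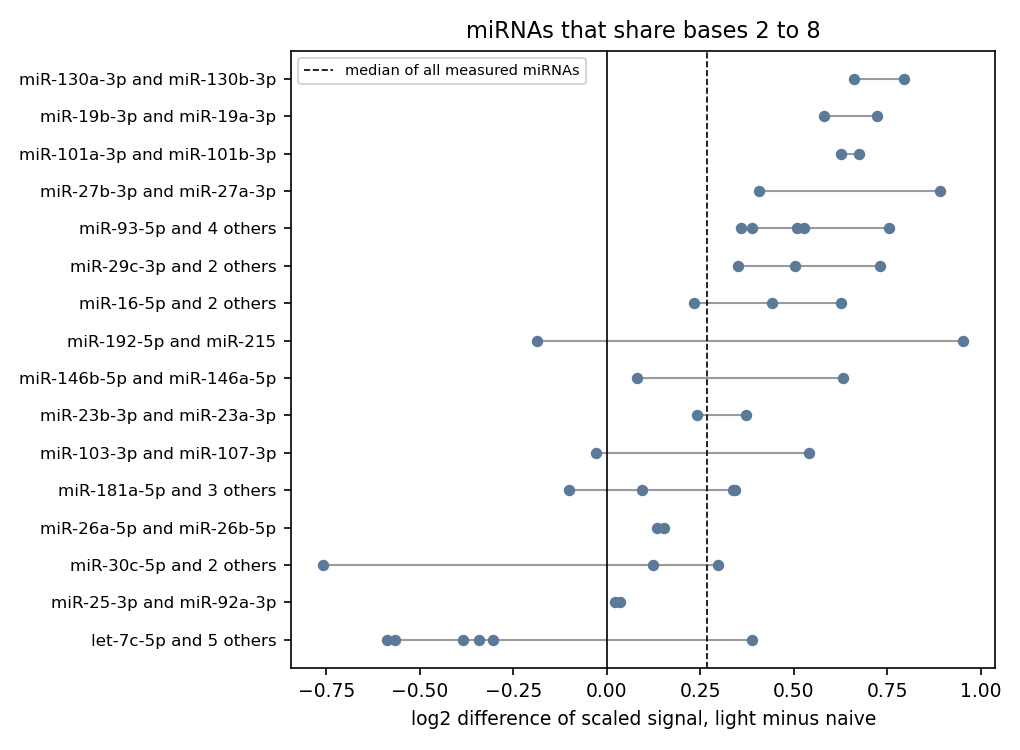
Rows are the 16 groups of miRNAs with the same bases 2 to 8, ordered by median; points give each member's log2 difference of scaled signal, light minus naive, and the dashed line the median of all 117 at 0.27. The miR-26 and miR-25 pairs are tight, and miR-192-5p with miR-215 spans 1.14.

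miR-92b, named in the series' title, was not a member. miR-92b-3p read −30.4 ± 1.49 on the naive array and −23.2 ± 2.02 on the light array, with 0 of 20 spots well above background on each; on the severe array it read 246 ± 5.38, with 10 of 20. miR-92a-3p and miR-25-3p, which share its seed, stood at 0.03 and 0.02, both below the median of all miRNAs. The 19 miRNAs detected on the naive array but not on the light array were dim, with naive signals between −3.11 and 41.7 and a median of 13.5; the 1 miRNA detected on the light array alone, miR-24-2-5p, read 6.03 ± 2.77, below the floor. Of these 19, the moderate array detected 18 and the severe array 6. miRNAs of pancreas (0 of 4 on the array) and epithelium (0 of 7) were not detected on either array, and of 7 brain miRNAs only miR-128-3p, which is not confined to brain, was detected (log2 −0.13). In the remaining lists the median was 0.45 for 7 miRNAs reported as raised in HCC, 0.37 for 5 of the miR-23, miR-24 and miR-27 families, 0.34 for 4 of the miR-15 and miR-103 families, 0.23 for 3 from imprinted loci and 0.19 for 10 of the miR-26, miR-29 and miR-30 families, and 0 of these passed 2-fold.

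The GC content of the mature sequence tracked the differences weakly. Over the 107 measured miRNAs with a sequence, Pearson's r was −0.16 and Spearman's rho −0.18, as a description across miRNAs that share the same 2 arrays and are not independent. The 36 miRNAs with the lowest GC content had a median difference of 0.42, the next 40 a median of 0.28 and the 31 with the highest 0.23. On the dimmer side of the miRNAs r was −0.07, and on the brighter side −0.21.

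The counts past 2-fold depended on the scaling, while miR-144-3p and miR-140-5p stayed highest and miR-122-5p lowest. The places next to these changed in settings that do not shift all differences alike. After miR-122-5p the lowest were miR-139-3p and miR-466c-3p as reported. They were miR-30c-5p and miR-126a-3p with the scanner's total signal, and miR-133b-3p and miR-3584-5p with normexp. After miR-140-5p the highest was miR-215 as reported and miR-672-5p with quantile normalization. miR-144-3p was above 0 under all settings run, from 0.47 to 1.38, and at least 2-fold higher in 10 of the 14. miR-122-5p was at least 2-fold lower in all 14. Relative to each setting's own median, 36 miRNAs lay above it and 32 below it in every setting that gave them a value. Settings that shift all differences alike repeat the same check here, so only the others could move a miRNA across the median. The 36 include both arms of miR-140 and miR-142, miR-27a-3p, miR-130a-3p, miR-130b-3p and miR-301a-3p. The 32 include 5 let-7 members, miR-133b-3p, miR-1-3p, miR-126a-3p and miR-192-5p.

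**Figure D5:**
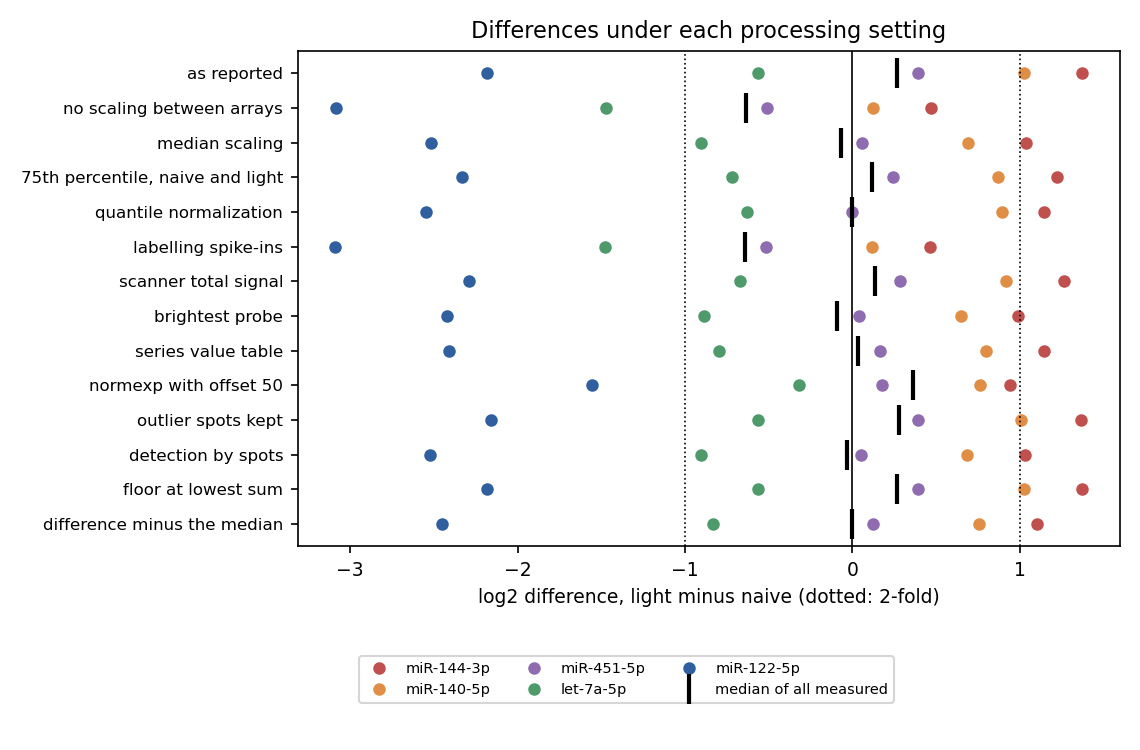
Each row is 1 processing setting, and the x axis gives the log2 difference, light minus naive, for 5 miRNAs; black ticks mark the median of all measured miRNAs and dotted lines 2-fold. The whole set shifts with the scaling, from a median of 0.36 with normexp to −0.64 with the spike-ins, while miR-122-5p stays lowest and miR-144-3p highest.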

How the data were processed

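RNA from serum exosomes was labelled with Cy3 and read on 1-colour Agilent arrays for rat miRNAs (design 046066), 1 for each group, per the labels and the file headers. The deposited intensity values per spot were made, per the file headers, with Agilent Feature Extraction 10.7.3.1, including background subtraction and no scaling between arrays; the submitters' processing notes name version 9.1. The labels' labelling protocol describes cRNA amplification for messenger RNA, which was not resolved. The authors deposited a value table of 102 miRNAs that follows the total signal within 0.0424%, linear and unscaled; column medians were 189 for naive, 107 for light, 304 for moderate and 114 for severe.

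Each array had 14380 miRNA spots; outlier spots (386 naive, 387 light) were left out and 0 were saturated. The processed signal was averaged per probe, summed per miRNA, scaled and put on a log2 scale (Python 3.11.15, pandas 2.3.3; limma 3.58.1 for normexp). The probe sums and differences were tested on simulated data, scaled over miRNAs simulated without a change. The choice of scaling and the floor were not tested in this way. The 75th percentile over all rat miRNAs was not usable for scaling, being −0.739 on the light array. The plan named the mean spot signal for normexp; the median signal was used, as the column at hand. Members and lists were chosen with earlier results of these data known. Of 160 listed miRNAs 153 matched the array. Named miRNAs were mostly drawn from 4 sets. These are the 10 highest and 10 lowest differences that lay on the same side of the median in the scanner's total signal, those measured on 1 array, the 10 that gave most signal on each array, and list members. Not all miRNAs of these sets are named.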

Additional observations from a re-analysis of the deposited data

Results flagged for a closer look

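The called difference of miR-144-3p, 1.38 on the light array against naive, had the opposite sign on the moderate array, at −0.19. That sign depended on the scaling, since before scaling miR-144-3p read 169 on the naive array and 212 on the moderate array. The called difference of miR-140-5p, 1.03 on the light array, had the opposite sign on the severe array, at −0.21. These comparisons share the naive array, each side is a single array, and the difference was not tested.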

How the results depend on the processing

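With 1 array a group no replicate could be left out, and results are values with no test. No paired analysis was possible because each group has 1 array. The counts of miRNAs at least 2-fold higher and lower, bounds included, were 2 and 1 as reported. They became 0 and 34 without scaling, 0 and 35 with labelling spike-ins, 1 and 5 with median scaling, 1 and 5 with detection by spots well above background, 0 and 4 with the brightest probe, 1 and 3 in the series' value table, 3 and 3 with the floor at the lowest summed signal, 1 and 4 relative to the median, and 26 and 8 at 1.5-fold. The higher count was 1 and the lower 1 with quantile normalization, with the 75th percentile over miRNAs detected on the naive and light arrays and with the scanner's total signal, and 0 and 1 with normexp, whose offset of 50 lowers folds by construction. Keeping outlier spots left the counts at 2 and 1. No called miRNA changed sign. Dim miRNAs are limited by the floor: of 141 members, 13 were measured on neither array.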
